A study of Mus musculus with 4 samples.

Results

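Irf8-high cells were the bone marrow cells of this series with at least 3 unique molecular identifiers (UMIs, each counting 1 captured RNA molecule) of Irf8 and 0 UMIs of each of Ms4a3, Ebf1, Cd79a, Il7r and Pf4. They numbered 747 of 33042 kept cells, 479 of 18294 in the GEM-X library and 268 of 14748 in the v3.1 library. The 5 excluded genes mark granulocyte, B lymphoid, lymphoid and megakaryocyte priming. Of 1180 cells with at least 3 Irf8 UMIs, 433 carried at least 1 of them, most often Ms4a3 (232 cells) or Il7r (180 cells). The cells were thus chosen by their UMIs of Irf8 and of the 5 excluded genes, so levels in the Irf8-high cells against other cells are a description without a test.

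The cells came from 2 male mice, 3 months old, carrying Tppp3CreER and LSLTdTomato. Both mice had received tamoxifen on postnatal days 0 and 3, so no untreated animal and no animal without the alleles entered the comparisons. A CreER recombinase acts only while tamoxifen is present, and the loxP-stop-loxP reporter then stays on in the descendants of recombined cells. Cells of the lineage-negative, Sca+, Kit+ fraction, which holds stem cells and multipotent progenitors, were sorted by reporter signal, giving each mouse 1 tube of tdTomato-positive and 1 of negative cells. Each of the 4 tubes was labelled with a hashtag oligonucleotide, and the pool was run with 2 versions of the 10x 3' chemistry, GEM-X and v3.1. The tube is the replicate, with 2 mice per gate, and the 2 chemistries are repeat captures of the same tubes.

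Irf8 is a transcription factor of the interferon regulatory factor family. It binds DNA mainly together with partners such as PU.1 (gene Spi1) and is needed for monocyte and dendritic cell development, while restraining the granulocyte programme. Csf1r is the receptor for the macrophage growth factor M-CSF, and Tyrobp (DAP12) is a signalling adaptor of many myeloid receptors. In the classical view, monocyte-dendritic progenitors keep Flt3 and gain Csf1r as they lose stem cell genes.

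The label of monocyte-dendritic priming was met in part. Monocyte genes were higher than in other cells and stem cell genes lower, but Csf1r had a UMI in only 28.2% of the Irf8-high cells (95% exact binomial interval 25.0% to 31.6%). Dntt, the terminal transferase of early lymphoid progenitors, had a UMI in 396 of the 747 cells, and 340 cells had both a Dntt UMI and at least 3 UMIs of Mpo, the myeloperoxidase of myeloid progenitors. Mature macrophage genes were at or near 0, with 0 of 9 at 10 CPM and a C1qa UMI in 0.134% of the cells. Of the plasmacytoid dendritic list, Siglech had a UMI in 0.268% of the cells, but Cox6a2 stood at 18.7 against 5.90 CPM in other cells (a UMI in 20.2% of the cells) and Bst2, which is broadly expressed, at 128 against 103 CPM. Monocyte genes were not particular to these cells: in the 439 kept cells with at least 3 UMIs of the excluded gene Ms4a3, Clec12a stood at 280.0 against 121 CPM here, Tyrobp at 238 against 126, Ly86 at 58.1 against 38.2, Ccr2 at 35.2 against 21.7 and F13a1 at 148 against 41.0. The cells are therefore called Irf8-high cells here.

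The hashtags that tie each cell to its mouse and gate are shown because every comparison between tubes rests on them. The capitals are the full 15-base barcodes.
mouse 1 tdTomato-positive: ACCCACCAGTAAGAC
mouse 1 tdTomato-negative: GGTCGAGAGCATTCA
mouse 2 tdTomato-positive: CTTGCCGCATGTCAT
mouse 2 tdTomato-negative: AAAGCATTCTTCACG

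Irf8 (ENSMUSG00000041515) lies on chromosome 8, 120736358 to 120756694, plus strand, in GRCm38 (mm10). Clec12a (ENSMUSG00000053063), an inhibitory C-type lectin receptor of myeloid cells and the gene with the highest ratio to other cells among those at 50 CPM or more, Irf8 apart, lies on chromosome 6, 129342691 to 129365303, plus strand. Their RefSeq promoter windows of 300 bases, from 250 bases before to 50 after the start, are shown for the defining gene and for the leading gene. The Irf8 window is chr8:120736108-120736407 and the Clec12a window chr6:129349994-129350293, both GRCm38.p6, plus strand. Capitals mark matches to the interferon-gamma activated site (TTCNNNGAA) in Irf8 and to a C/EBP site (TTGCGCAA) in Clec12a.
Irf8: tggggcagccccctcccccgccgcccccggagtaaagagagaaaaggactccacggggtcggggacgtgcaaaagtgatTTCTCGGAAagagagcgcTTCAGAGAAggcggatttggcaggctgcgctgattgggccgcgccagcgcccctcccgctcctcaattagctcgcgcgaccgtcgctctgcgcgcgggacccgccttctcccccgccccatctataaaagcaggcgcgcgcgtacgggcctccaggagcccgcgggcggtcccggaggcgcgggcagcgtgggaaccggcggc
Clec12a: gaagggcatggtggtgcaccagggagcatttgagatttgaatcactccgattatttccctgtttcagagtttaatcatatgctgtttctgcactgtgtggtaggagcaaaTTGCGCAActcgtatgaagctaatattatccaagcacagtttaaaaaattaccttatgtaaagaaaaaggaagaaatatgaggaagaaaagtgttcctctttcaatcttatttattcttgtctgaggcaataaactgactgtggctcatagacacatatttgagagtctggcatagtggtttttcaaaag

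The Irf8 window shown held TTCNNNGAA from the base 171 and from the base 153 before the start. The Clec12a window held TTGCGCAA from the base 140 before the start. Windows were searched on both strands for these letters, for PU.1 (GAGGAAGT), the ETS-IRF composite site, the interferon-stimulated response core, which shares most of its letters with the composite site, and an E-box (CAGCTG). Of 27025 genes with a window, 9.55% held TTCNNNGAA, 3.69% GAGGAAGT, 3.16% the ETS-IRF site, 3.99% the response core, 0.207% TTGCGCAA and 18.3% CAGCTG. Of 18 genes searched (Irf8, Tyrobp, Ly86 and the 15 genes with the highest ratios described below), 15 had a window. GAGGAAGT was found in 2 of them (Atp8b4 and BC035044), TTCNNNGAA in 3 (Irf8, Ncf1 and Ctsg), the response core in 1 (Ncf1), CAGCTG in 4 (Ccl9, Tpm4, Fgf13 and Milr1) and the ETS-IRF site in 0. A match is a match of letters and not a site shown to be bound.

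Depth differed between the groups of cells compared. The 2 matrices held 20511 and 17755 barcodes with 234563105 and 178214937 gene UMIs, shared 0 barcodes among kept cells, and left 33042 cells after filters on genes, mitochondrial UMIs and hashtags. Irf8-high cells had a median of 16636 UMIs against 8511 in the other kept cells, and 23.4% of them lay above the 95th percentile of UMIs of their chemistry against 4.57% of the others. Cells that carried 2 hashtags, which are doublets by construction and were left out, met the Irf8 rule in 2.95% (GEM-X) and 3.19% (v3.1) of cases, at median depths of 17843 and 16456 UMIs. Doublets within a tube carry 1 hashtag and could not be removed; their part in the results was not tested. A rule on a number of UMIs favours deep cells, so levels are given as CPM, the UMIs of a gene over all UMIs of the cells summed, and shares of cells also after thinning every cell to 5000 UMIs.

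Among the 3 marker genes, Irf8 itself set the rule: its level over the 8 sums of a tube and a chemistry was 248 CPM at the lowest, 311 at the median and 431 at the highest, against 17.7 to 35.0 CPM in the other cells. Csf1r ranged from 10.3 to 33.8 CPM, with a median of 21.3, against 2.26 to 5.80 CPM in the other cells. Tyrobp ranged from 94.7 to 188 CPM, with a median of 146, against 42.6 to 84.5 CPM. Csf1r and Tyrobp were thus higher in the Irf8-high cells, while Irf8 was raised by the rule. At 5000 UMIs per cell, a Csf1r UMI remained in 10.5% of the Irf8-high cells, 1.03% of cells with 0 Irf8 UMIs and 0 of 194 cells with at least 2 UMIs of the erythroid factor Klf1, which allows a share of up to 1.55%. Unthinned, these shares were 28.3%, 1.98% and 1.55%, at median depths of 16656, 8409 and 33298.5 UMIs among the cells deep enough to thin.

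**Figure D1:**
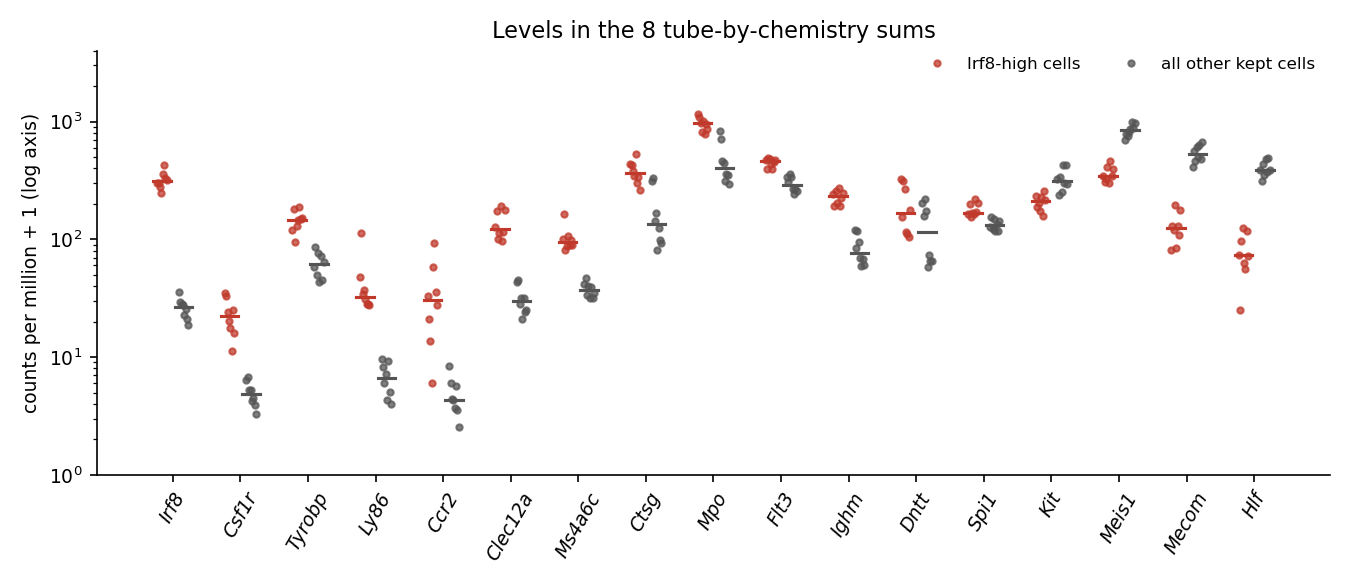
Levels of the plotted genes as CPM plus 1 (log axis) in the 8 sums of a tube and a chemistry, for Irf8-high cells (red) and all other kept cells (grey); points are sums and bars medians. Irf8, Csf1r, Ly86 and Clec12a are higher, and Hlf and Mecom lower, in Irf8-high cells.

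Over all genes with at least 10 CPM in either set, 76 of 9498 (0.8%) were at least 2-fold higher in the Irf8-high cells and 343 (3.61%) at least 2-fold lower, with a median log2 ratio of -0.07. Of 22 monocyte genes, 17 reached 10 CPM; 10 of these were at least 2-fold higher and 0 at least 2-fold lower, with a median log2 ratio of 1.11. Clec12a was at 121 CPM against 28.3 in the other cells, and its 8 sums ranged from 95.7 to 190 CPM against 20.04 to 44.0. Ly86, the partner of the toll-like receptor homologue RP105, ranged from 26.8 to 111 CPM against 3.02 to 8.69. Ms4a6c ranged from 80.5 to 163 CPM against 30.7 to 45.7. Ccr2, the chemokine receptor that lets monocytes leave the marrow, spread widely, from 5.07 to 92.3 CPM with a median of 29.6, against 1.55 to 7.42. The lowest Ccr2 sum of Irf8-high cells lay within the range of the others. How many of all genes had ranges apart between the cell sets is not given, so these ranges are a description only.

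Other genes with high ratios belonged to several lineages. Ctsg (cathepsin G, a granule protease) was at 372 against 148 CPM, Ccl9 (a myeloid chemokine) at 119 against 47.9, Ncf1 (a subunit of the phagocyte oxidase) at 80.0 against 28.1 and Cst7 (cystatin F) at 75.9 against 32.1. Ighm, the immunoglobulin mu locus whose sterile transcripts appear early in lymphoid priming, was at 233 against 87.8 CPM. Bcl2, an inhibitor of apoptosis, was at 548 against 228 CPM. The remaining genes of the 15 with the highest ratios, each at 50 CPM or more and higher in 8 of 8 sums, were Rab44, Tmem229b, Atp8b4, Tpm4, BC035044, Fgf13 and Milr1, with log2 ratios between 1.12 and 1.39. Several were as high in other kept cells. With at least 3 Dntt UMIs and 0 of Irf8 and the excluded genes, Ighm stood at 297 CPM, Ncf1 at 79.3 and Fgf13 at 94.0 (72.6 here). In the 439 cells with at least 3 Ms4a3 UMIs, Ctsg stood at 2560 CPM, Cst7 at 217 and Atp8b4 at 824 (486 here). Bcl2, Tmem229b, BC035044, Tpm4 and Milr1 were lower than here in both sets.

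Among transcription factors, the monocyte-dendritic list of 25 showed 2 of 17 expressed members at least 2-fold higher and 0 lower. These were Irf8, which the rule itself raised, and Id2, higher in 6 of 8 sums, whose log2 ratio of 1.51 was 0.44 without the 9 Xcr1 and Clec9a cells described below. Spi1 was at 168 against 131 CPM and Cebpa, a factor of myeloid commitment, at 24.8 against 13.3 CPM; both were higher in 8 of 8 sums. Zeb2 was at 571 against 340 CPM. In the IRF family, none of the expressed members apart from Irf8 was 2-fold higher or lower, and the median log2 ratio, Irf8 left out, was -0.13. Klf4, a monocyte factor, stood at 2.20 CPM.

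Among cytokine and chemokine receptors, 3 of 16 expressed members were at least 2-fold higher (Csf1r, Ccr2 and Il6ra, the receptor for interleukin 6) and 2 at least 2-fold lower, among them the endotoxin receptor Tlr4. Flt3, the receptor shared by early lymphoid and dendritic progenitors, had a UMI in 97.7% of the cells and stood at 468 against 307 CPM. Kit, the stem cell factor receptor used in the sort, stood at 208 against 334 CPM. Csf3r, the G-CSF receptor of granulocyte development, stood at 83.9 against 102 CPM.

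Granule genes were mixed. Mpo was at 952 CPM against 440 in the other cells, and Prtn3 (proteinase 3) at 508 against 433. Elane (neutrophil elastase) was lower, at 32.3 against 196 CPM, but the other cells included 439 cells with at least 3 Ms4a3 UMIs, in which Elane stood at 5353 CPM. In cells with 0 Irf8 UMIs Elane stood at 10.0 CPM. S100a9, a calprotectin subunit of neutrophils, was at 2.04 against 53.5 CPM and at 729 CPM in those 439 cells.

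Stem cell genes were lower as a group: 13 of 15 expressed members were at least 2-fold lower and 0 higher, with a median log2 ratio of -1.94. Hlf, a transcription factor of stem cells, ranged from 24.1 to 124 CPM over the 8 sums, with a median of 72.0, against 315 to 491 in the other cells. Mecom, a stem cell factor, ranged from 79.6 to 194 CPM against 414 to 665. Meis1 stood at 355 against 834 CPM and Gata2 at 19.2 against 76.6 CPM. Each of the 4 genes was lower in 8 of 8 sums. The 15 genes with the lowest ratios included S100a9, Trpc6, Sox6, Pcdh7, Prkg1, Dlg2, Apoe, Plxdc2, Csgalnact1, Slc18a2, Elane, Tgfbr3, Rora and Gng11, with log2 ratios between -4.16 and -2.25. Megakaryocyte-erythroid genes were at least 2-fold lower in 6 of 6 expressed members.

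Early lymphoid genes were mixed, with 1 of 11 expressed members at least 2-fold higher (Ighm) and 3 lower, among them Il7r, which the rule set to 0. Dntt stood at 241 against 137 CPM and was higher in 7 of 8 sums. Satb1, a chromatin organiser of lymphoid priming, ranged from 379 to 439 CPM against 185 to 255. Cycle genes were somewhat higher, with median log2 ratios of 0.68 over 12 G2/M genes and 0.30 over 12 G1/S genes, of which 0 reached 2-fold.

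Within the Irf8-high cells, monocyte genes were graded with the number of Irf8 UMIs. There were 312 cells with 3 Irf8 UMIs, 248 with 4 or 5, 132 with 6 to 9 and 55 with 10 or more, at median depths of 14769, 16664, 17906 and 20307 UMIs. Of the 55, 9 cells with Xcr1 and Clec9a UMIs are described apart and are left out of the values for 10 or more that follow. Ly86 stood at 14.1, 17.4, 57.6 and 164 CPM across the 4 bins. F13a1, the coagulation factor subunit of classical monocytes, stood at 20.4, 15.2, 55.9 and 204 CPM, with no increase between the lowest bins. Ccr2 stood at 10.0, 10.2, 21.5 and 60.6 CPM. Csf1r stood at 15.7, 19.8, 33.1 and 47.8 CPM.

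Stem cell genes ran the other way up to 9 UMIs. Hlf stood at 124, 94.3, 45.6 and 66.1 CPM and Mecom at 176, 134, 67.9 and 80.8 CPM, so that neither was lowest in the highest bin. Dntt stood at 276, 276, 184 and 100 CPM. Mpo stood at 836, 865, 1143 and 1495 CPM, and Flt3 stayed between 397 and 502 CPM. These are levels in pooled cells, and depth rose over the same bins. The 744 cells just outside the rule, with 2 Irf8 UMIs, stood at 5.95 CPM for Ly86, 12.2 for Csf1r, 158 for Hlf and 224 for Dntt, next to the values of the cells with 3 UMIs.

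**Figure D2:**
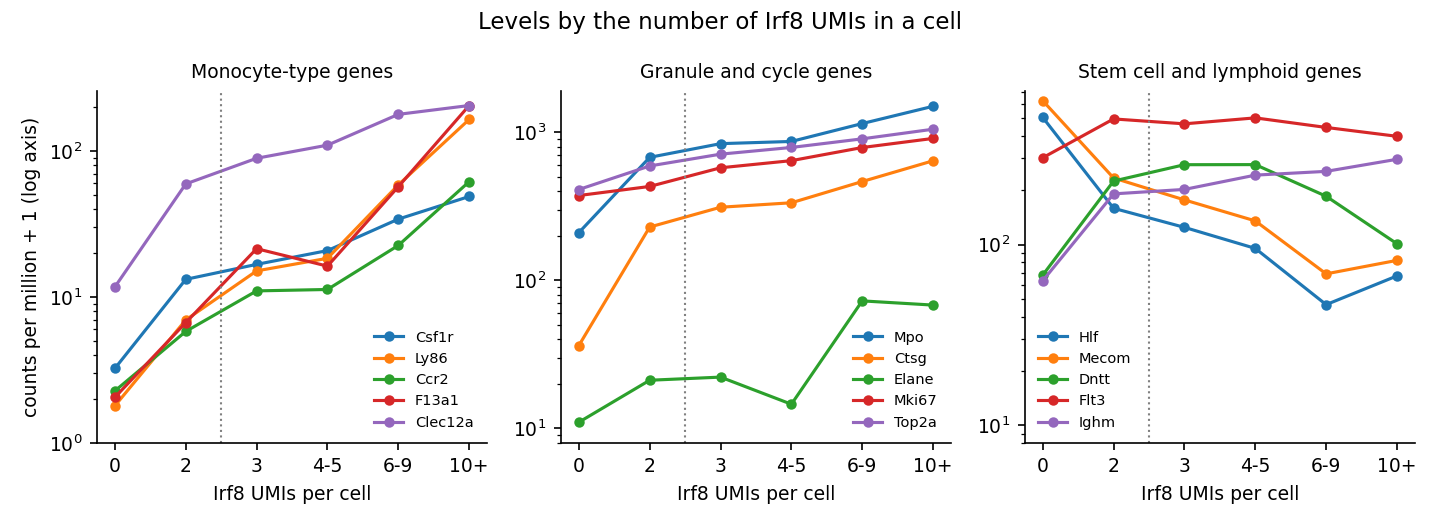
Levels as CPM plus 1 (log axis) against the number of Irf8 UMIs in a cell, pooled over tubes; the dotted line separates cells outside the rule (0 and 2 UMIs) from Irf8-high cells, and the bin of 10 or more leaves out the 9 Xcr1 and Clec9a cells. Ly86, Ccr2 and F13a1 are highest at 10 or more UMIs, where Dntt is below its level at 3 UMIs.

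Monocyte genes were found together in the same cells. Of 165 cells with a Ly86 UMI, 74 had a Csf1r UMI (44.8%, interval 37.1% to 52.8%), against 23.5% (20.1% to 27.2%) of the 582 cells without. A Ccr2 UMI was present in 28.5% of the cells with Ly86 and 8.25% of the others. An Hlf UMI was present in 36.4% and 56.9%, the opposite order, although the cells with Ly86 were deeper (median 18788 against 15715 UMIs). Intervals are exact binomial and cover counting error only. In the 157 cells with Ly86 that lacked Xcr1 and Clec9a, F13a1 stood at 126 CPM against 14.1 in the cells without Ly86 (the 9 cells left out of both), and Ly6c2, the Ly6C antigen of classical monocytes, at 41.7 against 3.04.

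Dntt was not exclusive of Csf1r, but several other monocyte genes were lower in the cells with a Dntt UMI. A Csf1r UMI was present in 27.5% (interval 23.2% to 32.2%) of the 396 cells with a Dntt UMI and in 29.1% (24.4% to 34.1%) of the 351 without, at median depths of 16417 and 16851 UMIs. Ccr2 differed more, at 7.32% (4.96% to 10.3%) against 18.8% (14.9% to 23.3%). Elane had a UMI in 11.9% and 26.8%. Pooled levels with and without Dntt were 13.5 and 73.4 CPM for F13a1, 1.91 and 24.6 for Ly6c2 and 59.5 and 129.9 for Ms4a6c. These 3 genes were picked for their large differences, and Xcr1 and Clec9a cells were left out of the cells without Dntt. Csf1r and Dntt thus overlapped in 109 cells.

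A set of 9 cells stood apart from all others. Chosen after its values were seen, by at least 2 UMIs of Xcr1 and Clec9a together (receptors of cross-presenting conventional dendritic cells), it had a median of 21 Irf8 UMIs. These cells held between 140 and 260 UMIs of Cd74, the invariant chain of MHC class II, and together stood at 14363 CPM for Cd74 against 22.3 in the other 738 Irf8-high cells. H2-Aa stood at 6039 against 16.03 CPM, H2-Eb1 at 4777 against 8.33 and Cadm1, an adhesion molecule of the same dendritic cells, at 997 against 0.159. Mpo was at 8.31 against 961 CPM, and Csf1r had 0 UMIs in all 9. Flt3 had a UMI in 9 of 9 and Kit in 8 of 9 cells.

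All 9 came from mouse 2, with 4 in the tdTomato-positive and 5 in the negative tube, and 4 from the GEM-X and 5 from the v3.1 library. In mouse 1, 0 of 511 Irf8-high cells met the same count, which allows a share of up to 0.587%. Another 6 kept cells met it outside the Irf8 rule. Of all Irf8 UMIs in Irf8-high cells, 5.33% were in the 9 cells, and of the Batf3 UMIs, a factor required for this dendritic type, 94.4%. Results on dendritic and MHC class II genes are therefore given with and without these cells.

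**Figure D3:**
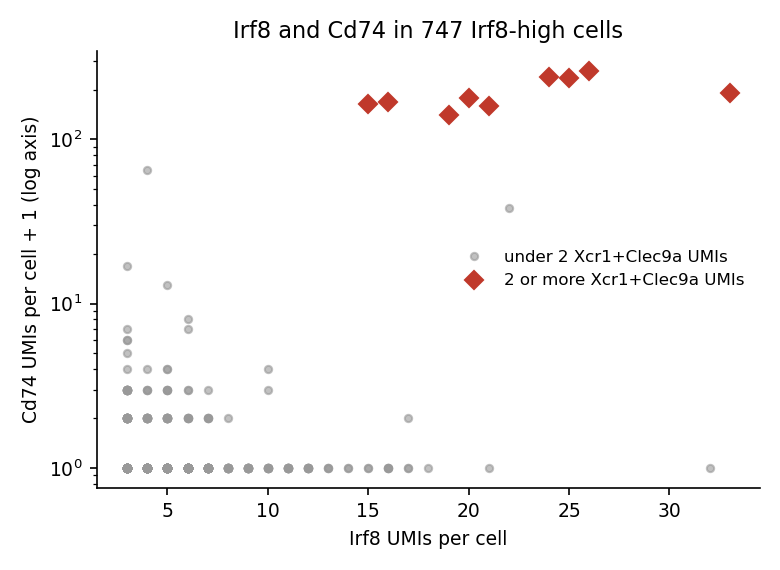
Irf8 UMIs per cell against Cd74 UMIs per cell plus 1 (log axis) in the 747 Irf8-high cells. The 9 cells with at least 2 Xcr1 and Clec9a UMIs (red diamonds) hold 140 to 260 Cd74 UMIs each, above every other cell.

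The share of Irf8-high cells differed little between the tdTomato-positive and negative tubes of a mouse, by less than the counting intervals. In mouse 1 it was 3.103% (121 of 3900 cells, interval 2.58% to 3.70%) in the positive tube and 3.06% (390 of 12762, 2.76% to 3.37%) in the negative tube. In mouse 2 it was 1.496% (59 of 3945, 1.14% to 1.93%) and 1.42% (177 of 12435, 1.22% to 1.65%). The mean difference was 0.059 percentage points (exact permutation test over 4 tubes, two-sided, p = 0.667, n = 2 per gate). With 4 tubes the smallest p this test can give is 0.333, so no difference could have passed 0.05.

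The mice differed more than the gates. Both tubes of mouse 1 lay above both of mouse 2, with a mean of 3.08% against 1.46%, a ratio of 2.11. This sets 1 animal against 1 animal, so it is a description with no test. The ratio was 2.02 in GEM-X and 2.27 in v3.1. Cells of mouse 1 were also deeper, with tube medians of 9111 and 9557.5 UMIs against 7731 and 7862. Among cells of 10000 to 25000 UMIs the ratio was 1.70. After thinning to 5000 UMIs, with at least 2 Irf8 UMIs asked for, the shares were 2.32% and 2.27% in mouse 1 against 1.49% and 1.26% in mouse 2, a ratio of 1.67. With the rule's 3 Irf8 UMIs asked for after thinning, the ratio was 1.42. Thinning left out 3469 cells, of which 318, 959, 589 and 1603 were in the positive and negative tubes of mouse 1 and then of mouse 2.

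**Figure D4:**
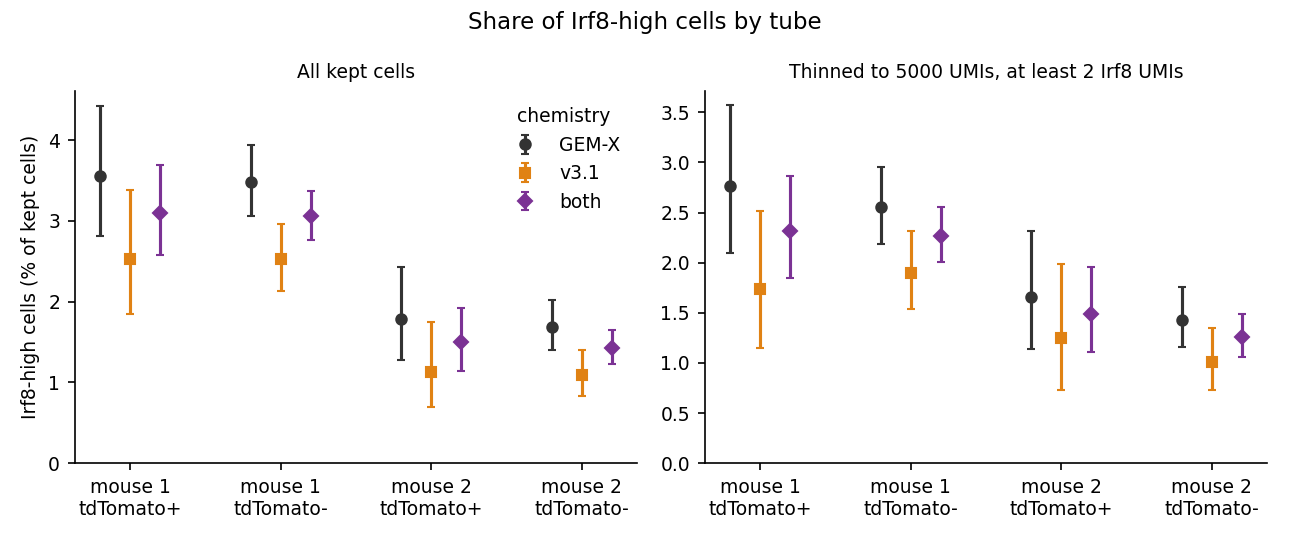
Irf8-high cells as a percentage of kept cells in each tube, for each chemistry and both together, with exact 95% binomial intervals that cover counting error only; left, the rule as stated, right, after thinning to 5000 UMIs with at least 2 Irf8 UMIs. Mouse 1 tubes lie above mouse 2 tubes in both panels, and the gates of a mouse overlap.

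Within the Irf8-high cells, 8 of 20 tested monocyte genes and 4 of 8 granule genes were called higher, and 2 of 14 stem cell genes lower, in the tdTomato-positive tubes. Summed counts of the 4 tubes were compared with edgeR's quasi-likelihood test, the mouse as a block and Benjamini-Hochberg adjustment over all genes tested; a gene was called at an adjusted p under 0.05. Of 10589 genes, 57 were called (0.538%), 38 higher (0.359%) and 19 lower (0.179%) in the positive tubes. Of the 57, 45 had the same sign in both mice. With DESeq2, or without the mouse as a block, 0 genes were called (28 and 272 at an unadjusted p under 0.05), and without the 9 Xcr1 and Clec9a cells 18 were. Each gate fit with 1 tube left out also lacked the mouse block. Leaving out 1 tube gave 0 without the mouse 1 positive, 1 without the mouse 1 negative, 3 without the mouse 2 positive and 36 without the mouse 2 negative tube.

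Of 22 monocyte genes, 20 were tested, and 8 rose and 0 fell (Ccr2, Clec12a, F13a1, Fcer1g, Ly86, Lyz2, Mpeg1 and Ms4a6c), with a median log2 fold change of 0.38 against 0.00 over all genes. Without the 9 dendritic-marker cells, 3 of the 8 were still called: Ccr2, F13a1 and Fcer1g. The log2 fold change of Mpeg1 went from 0.95 to 0.39, while that of Clec12a (0.39 and 0.41), Ly86 (0.82 and 0.81), Lyz2 (0.48 and 0.46) and Ms4a6c (0.42 and 0.46) stayed close. Adjusted p rose in this refit even where the fold change and its standard error barely moved. For Clec12a the standard error was 0.09 in both fits, and the adjusted p in edgeR 0.0115 and 0.0952. A lost call is thus no measure of the part of the 9 cells, and the cause of the rise was not tested. Ly6c2, which was not called, was higher in the positive tube of mouse 1 (18.8 against 4.29 CPM) and lower in that of mouse 2 (14.6 against 27.5 CPM). Ccr2 stood at 27.9 CPM in the positive and 9.72 in the negative tube of mouse 1, and at 68.6 and 32.2 CPM in mouse 2. The positive tube was higher in each mouse, by 1.31 ± 0.20 on the log2 scale (standard error; adjusted p = 1.21e-07 in edgeR), and by 1.38 ± 0.22 without the 9 cells (adjusted p = 0.0115). With 1 tube left out, in fits that also lacked the mouse block, the log2 fold change of Ccr2 ran from 0.47 to 2.18. A Ccr2 UMI was present in 17.4% and 11.03% of the Irf8-high cells of mouse 1 and in 20.3% and 10.7% of those of mouse 2. In the other kept cells, mouse 1 then mouse 2, the log2 ratios were 0.77 and 0.52 for Ccr2 and 1.30 and 0.49 for F13a1. They were 0.48 and 0.44 for Ly86, 0.56 and 0.04 for Clec12a, 0.07 and 0.08 for Fcer1g and -0.03 and 0.13 for Lyz2. None of the 8 genes was called in the comparison with the other cells set out below.

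Fcer1g, the Fc receptor gamma chain, stood at 86.1 and 54.0 CPM in mouse 1 and at 86.6 and 69.9 CPM in mouse 2 (log2 fold change 0.56 ± 0.13; edgeR, adjusted p = 0.00350). Without the cell richest in it, in the mouse 2 positive tube, the log2 ratio of mouse 2 was -0.18. F13a1 was called higher but differed between mice, at 84.2 and 22.4 CPM in mouse 1 and 50.6 and 52.2 CPM in mouse 2. A single cell of the mouse 2 negative tube held 49 F13a1 UMIs. Without it that tube stood at 34.6 CPM, and the log2 ratio of mouse 2 was 0.54 in place of -0.04. Ly86 stood at 69.8 and 34.3 CPM in mouse 1 and 29.3 and 27.2 CPM in mouse 2, so its call rested on mouse 1. Of the label's markers that the rule did not use, Csf1r had a log2 fold change of 0.34 ± 0.22 (adjusted p = 0.914) and Tyrobp of 0.29 ± 0.09 (0.206), and neither was called.

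Of 11 granule genes, 8 were tested, and Ctsg, Elane, Mpo and Prtn3 rose. Elane stood at 91.0 and 22.2 CPM in mouse 1 and at 28.1 and 15.2 CPM in mouse 2 (log2 fold change 1.80 ± 0.17; edgeR, adjusted p = 2.09e-21). A single cell of the mouse 1 positive tube held 26.0% of all Elane UMIs of the Irf8-high cells; without it that tube stood at 40.0 CPM and its log2 ratio to the negative tube was 0.82 in place of 1.99. With 1 tube left out and no mouse block, the fitted value ran from 0.53 without that tube to 2.23 without the mouse 2 positive tube. Ctsg stood at 436 and 366 CPM in mouse 1 and 452 and 313 in mouse 2, and Prtn3 at 687 and 496 and at 476 and 415 CPM. Both were higher in the positive tube of each mouse. In the other kept cells the log2 ratio was 1.54 in mouse 1 and -0.18 in mouse 2 for Elane, and 1.08 and 0.04 for Ctsg; the part of neighbouring granulocyte-primed cells in the result was not tested. Of 12 G2/M genes, Mki67 and Ube2c rose, with a list median of 0.24; Mki67 stood at 762 and 606 CPM and at 837 and 665 CPM. Histone genes, whose near-identical copies can share reads, were also among the calls (Hist1h2ac, log2 fold change 0.65 ± 0.15).

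Of 14 tested stem cell genes 2 fell in the positive tubes, Hlf and Mecom, with a list median of -0.24. The fitted sign was negative for the others too, but in mouse 2 alone Procr and Fgd5 had log2 ratios of 0.94 and 0.91. Hlf (chromosome 11, 90336536 to 90390895, minus strand) stood at 54.9 CPM in the positive and 107 in the negative tube of mouse 1, and at 59.6 and 101 CPM in mouse 2. Both positive tubes lay below both negative tubes. It differed by -0.88 ± 0.12 on the log2 scale (adjusted p = 2.57e-09 in edgeR), and -0.88 ± 0.12 without the 9 cells (adjusted p = 0.00219). The share of cells with an Hlf UMI was 44.6% and 55.9% in mouse 1 but 52.5% and 49.7% in mouse 2. At 5000 UMIs it lay between 23.3% and 25.6% in the 4 tubes, close between the gates of both mice although the level differed. Mecom stood at 97.7 and 149 CPM and at 99.0 and 132 CPM (log2 fold change -0.53 ± 0.10, adjusted p = 9.54e-05). At 5000 UMIs a Mecom UMI was present in 32.5% and 32.2% of the cells in mouse 1 and 30.5% and 32.4% in mouse 2.

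Other genes picked by the naming rule fell, with the same sign in both mice. Samd12 stood at 23.6 and 57.8 CPM in mouse 1 and at 25.9 and 42.4 CPM in mouse 2 (log2 fold change -1.10 ± 0.18; edgeR, adjusted p = 1.77e-06). Nfia, a nuclear factor I family member, stood at 18.3 and 45.0 CPM and at 29.3 and 38.4 CPM. Hlf, Mecom, Samd12 and Nfia were also called without the 9 cells, while Macrod2, Ldhb, Msrb3, Amer1 and Dcaf6 were not, although their log2 fold changes stayed close (Macrod2 -1.10 and -1.07, Dcaf6 -0.82 and -0.83).

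Dendritic and MHC class II calls rested on the 9 cells of mouse 2. Of 12 tested dendritic genes 5 rose (Clec9a, Cst3, Id2, Naaa and Xcr1), and of 9 MHC class II genes 4 rose (Cd74, H2-Aa, H2-Ab1 and H2-Eb1); without the 9 cells 0 of either list did. Cd74 stood at 9.63 and 16.3 CPM in mouse 1 and at 936 and 378 CPM in mouse 2. Its difference of 1.13 ± 0.09 on the log2 scale became -0.84 ± 0.24 without these cells (adjusted p = 0.364 in edgeR). Cst3 (cystatin C) and Id2 had the same sign in both mice with all cells, and the opposite sign in mouse 2 without the 9 cells, where the log2 ratio of Cst3 was -0.26. The 4 positive-tube cells were 4 of 59 and the 5 negative-tube cells 5 of 177 Irf8-high cells of mouse 2.

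**Figure D5:**
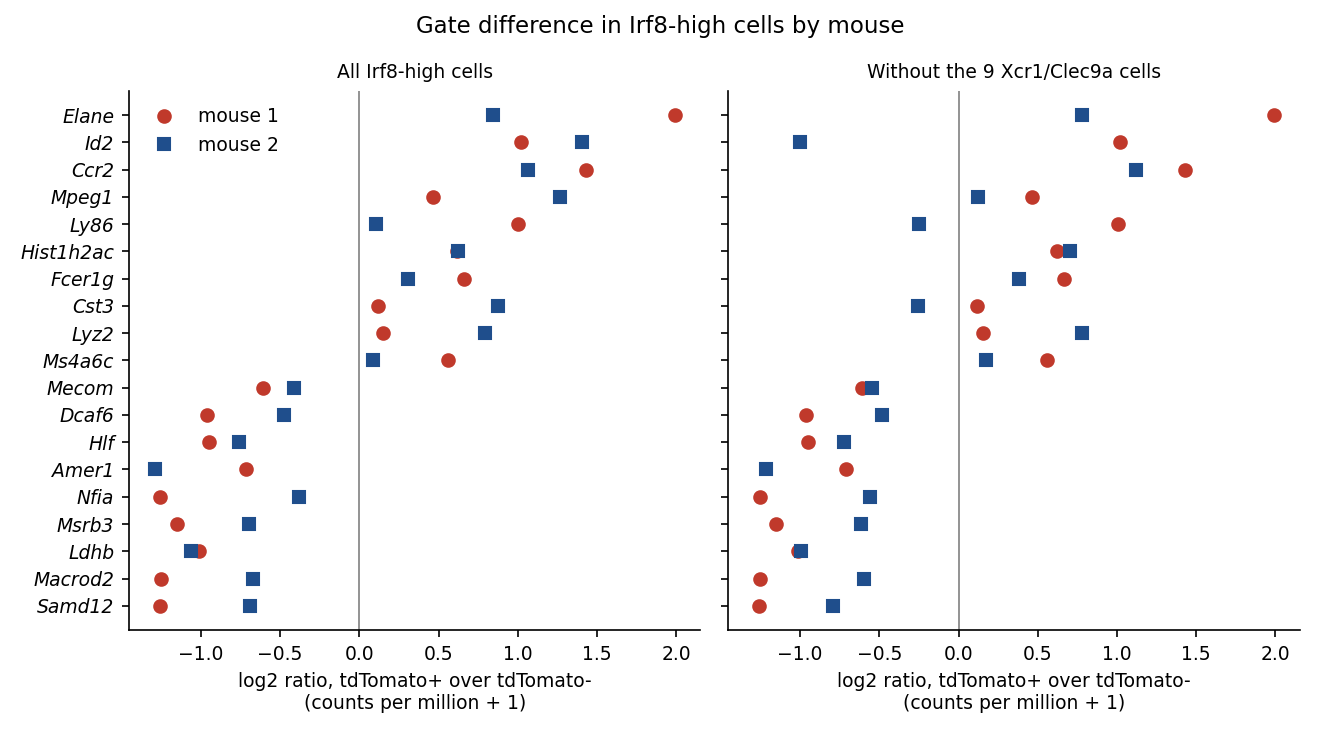
Log2 ratio of tdTomato-positive over tdTomato-negative tubes (CPM plus 1) in Irf8-high cells for genes picked by the naming rule, per mouse; left, all cells, right, without the 9 Xcr1 and Clec9a cells. Elane and Ccr2 stay above 0 and Hlf, Mecom and Samd12 below 0 in both mice and panels, while Id2, Cst3 and Ly86 cross 0 in mouse 2 on the right.

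The gate difference was then set against that in the other kept cells, with 8 sums of tube and cell set and the tube as a block in edgeR. Of 14629 genes, 3 were called (0.0205%), all with a lower ratio in the Irf8-high cells: Hlf, Dlg2 and Il1rapl2. In the other cells Hlf stood at 356 and 399 CPM in the positive and negative tubes of mouse 1 and at 440 and 448 CPM in mouse 2, and the difference of the log2 ratios was -0.79 ± 0.12 (edgeR adjusted p = 0.00792). Dlg2, a synaptic scaffold gene, had 2 UMIs in the positive and 99 in the negative tubes of Irf8-high cells, a ratio per UMI of 0.066 (interval 0.0079 to 0.246, counting error only), against a log2 ratio of 0.02 in the other cells. Il1rapl2, an interleukin 1 receptor family gene, had 0 UMIs in the positive and 79 in the negative tubes. With the positive tubes set to a floor of 3 counts over the group, it was 8.01-fold lower. The interval of its ratio per UMI ran from 0 to 0.157, counting error only. Its 79 UMIs lay in 22 cells, of which the richest held 13. Trpc6 and Cyp7b1, next by p, were not called (adjusted p = 0.0534 and 0.0847). DESeq2 and the fit without the block called 0 genes (113 and 541 at an unadjusted p under 0.05), and leaving out 1 tube gave between 1 and 33: 1 without the mouse 1 positive, 12 without the mouse 1 negative, 7 without the mouse 2 positive and 33 without the mouse 2 negative tube.

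Captured from the same tubes, the Irf8-high cells of the 2 chemistries differed in 3470 of 9244 genes (37.5%), 1787 higher (19.3%) and 1683 lower (18.2%) with GEM-X, in edgeR with the tube as a block. Chemistry, run and Cell Ranger version changed together and cannot be told apart. The largest changes among the named genes were in mt-Atp8, 274 CPM with GEM-X and 6.55 with v3.1, and in replication-dependent histone genes such as Hist1h3c (383 and 19.9 CPM). Cdk2ap1 fell from 112 CPM with v3.1 to 34.5 with GEM-X, and mt-Cytb from 3720 to 1487. Of the markers that the rule did not use, Csf1r differed by 0.30 ± 0.20 on the log2 scale (adjusted p = 0.257 in edgeR), while Tyrobp fell with GEM-X, by 0.39 on the log2 scale (standard error 0.10, adjusted p = 0.00117). Ly86 and Spi1 were also lower with GEM-X (log2 fold changes of -0.48 ± 0.17 and -0.25 ± 0.09), and Mpo and Ctsg higher (0.16 ± 0.06 and 0.23 ± 0.08), each at an adjusted p under 0.05. Cd74 stood at 98.9 CPM with GEM-X and 258 with v3.1, and was lower with GEM-X in 4 of 4 tubes. Of the 9 dendritic-marker cells, all from mouse 2, 5 were captured with v3.1 and the rest with GEM-X. The 16 genes named for chemistry, Cd74 among them, kept their sign and their call without these cells.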

How the data were processed

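Single-cell counts of RNA and hashtags were used as deposited: whole-number UMI counts per gene and barcode, by Cell Ranger, in version 8.0.1 for the GEM-X matrix and version 7.1.0 for the other, per the file headers. The submitters' processing notes name Cell Ranger 7.0.0 and mm10. Cells were kept with at least 1000 genes, at most 10% mitochondrial UMIs, and a top hashtag of at least 10 UMIs and 3 times the next. The members and gene lists were chosen with earlier results of these data known. Counts were summed per tube, normalized by TMM and tested with edgeR 4.0.16 in R 4.3.3 (filterByExpr, quasi-likelihood, Benjamini-Hochberg, called under 0.05); DESeq2 1.42.0 was an alternative. Standard errors are the log2 fold change over the square root of F. Positive and negative tubes came from the same mouse, so the mouse was a block; across 6491 genes the mouse 1 to mouse 2 log2 differences of both gates correlated (r = 0.36). With 2 mice and the mouse as a block, the fit borrows its measure of spread across genes. The p-values therefore do not measure agreement between the mice. Cd74 had log2 ratios of -0.70 in mouse 1 and 1.31 in mouse 2, with a standard error of 0.09.

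Named genes were those with the 15 highest and 15 lowest ratios to other cells (50 CPM or more, same sign in 8 of 8 sums), up to 10 called genes per direction for the gate (mean of 10 CPM or more, same sign in both mice), up to 8 per direction for chemistry and the 5 smallest p for the difference of gates. Log2 ratios used CPM plus 1. Binomial intervals are exact (Clopper-Pearson, 95%), and floors are 3 counts. Gene positions are from GENCODE M21 (GRCm38) and promoters from RefSeq (GRCm38.p6). Scripts were tested on simulated data. Both matrices were mapped in full, with 0 value columns left unmapped. A few genes that the naming rule or the lists hold are not reported here.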

Additional observations from a re-analysis of the deposited data

Results flagged for a closer look

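Several genes called between the gates moved in opposite directions in the 2 mice; each mouse has 1 pair of tubes, and the difference between mice was not tested. In mouse 2 the log2 ratio of the tdTomato-positive over the negative tube was 1.31 for Cd74, 2.60 for Clec9a, 1.41 for H2-Aa, 1.19 for H2-Ab1, 1.59 for H2-Eb1, 1.33 for Naaa, 1.36 for Plbd1 and 2.10 for Xcr1, while in mouse 1 the sign was opposite or both tubes were at 0. F13a1 (-0.042) and Lgals1 (-0.0902) were slightly lower in the positive tube of mouse 2 and higher in mouse 1. Without the cell richest in it, in the mouse 2 negative tube, F13a1 had a log2 ratio of 0.54 in mouse 2. Prkg1 was higher in mouse 2 (0.97) and lower in mouse 1.

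The gate difference in Irf8-high cells differed from that in other cells, by edgeR, for Hlf (difference of log2 ratios -0.79), Dlg2 (-3.91) and Il1rapl2 (-11.29, a fitted value with no UMIs in the positive tubes and so no measure of size).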

How the results depend on the processing

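Counts of called genes moved most. Gate fits with 1 tube left out also lacked the mouse block. For the gate (57 called), DESeq2 and the fit with no replicate block, that is without pairing the tubes of a mouse, gave 0, at least 5 Irf8 UMIs gave 26, leaving out the deepest cells 16, leaving out the Xcr1 and Clec9a cells (chosen after seeing the data) 18, GEM-X alone 23, v3.1 alone 12, and leaving out 1 tube 0 to 36. For the difference of gates (3 called), DESeq2 and no replicate block gave 0, no filter 17, at least 5 Irf8 UMIs 21, without the Xcr1 and Clec9a cells 17, v3.1 alone 18, GEM-X alone 2 (0 of the main 3), without the deepest cells 2 (1 of the 3), and leaving out 1 tube 1 to 33. The 1 gene called without the mouse 1 positive tube was none of the 3. For chemistry (3470 called), DESeq2 gave 1601, at least 5 Irf8 UMIs 1388, and leaving out 1 tube 1981 to 3508. Without the block 2990 chemistry genes were called.

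The gate difference in share (0.059 points) was -0.09 at a minimum of 2 Irf8 UMIs and ran from -0.76 to 0.88 with 1 tube left out, which leaves the mice unbalanced. Against other cells, 419 genes passed 2-fold, and 778 when cells were thinned to 5000 UMIs. The share of cells with a Csf1r UMI (28.2%) was 10.5% thinned and 21.2% at exactly 3 Irf8 UMIs. Elane against other cells turned to a log2 ratio of 0.93 with the rule applied to thinned cells, and Lyz2 between gates to -0.23 with GEM-X alone. With 1 tube left out and no mouse block in the fit, 6 gate values changed sign: Id2 ran from -0.39 to 2.97, Mpeg1 ran from -0.10 to 1.97, Ly86 ran from -0.11 to 1.17, Cst3 ran from -0.44 to 1.33, Lyz2 ran from -0.21 to 1.17, Csf1r ran from -0.55 to 0.65. Such fits also take in the difference between the mice. The causes were not tested. A lone tube is taken to vary like the others.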
